A study of Homo sapiens with 13 samples.

Results

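These 99 genes fell during the 28 h after human pluripotent cells met BMP4 and, by a fixed ratio, were higher again at 42 h. They were chosen from 13341 genes with at least 2.5 CPM, the count of a gene scaled by the total of its library, at 0 h. A gene was included when the lowest of its values at 12, 20 and 28 h was at most 0.4 times the 0 h mean and its 42 h value was at least 1.5 times that lowest value. Of 763 genes that dipped in this way, 664 did not recover by this measure. Since the time-series values chose the genes, their course over time is described here without a test. A separate experiment at 5 h, in which the BMP receptor inhibitor LDN-193189 (LDN) was added with BMP4, took no part in the choice and is tested.

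The cells were RUES2 human embryonic stem cells carrying a GFP::SMAD4 fusion and were grown in mTeSR medium. The time series held 7 libraries of total RNA depleted of ribosomal RNA from cells given 100 ng/mL BMP4, 5 µM IWP2 and ROCK inhibitor (RI), with 2 libraries at 0 h (labelled with the same treatment and read here as its start) and 1 each at 4, 12, 20, 28 and 42 h. The dose response held 6 polyA-selected libraries at 5 h, of which 5 had the same BMP4, IWP2 and RI with 0, 10, 30, 100 or 300 nM LDN. The sixth, untreated, is labelled with mTeSR only, without BMP4, IWP2 and RI, so the parts of these 3 agents in its difference from the others cannot be told apart. No time after 0 h and no dose had a second library, and nothing states that the 0 h libraries came from separate cultures.

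BMP4 is a secreted signal that binds receptor kinases. These phosphorylate SMAD1, SMAD5 and SMAD9, which enter the nucleus with SMAD4 and bind DNA. LDN blocks the BMP type I receptors, and IWP2 blocks the secretion of Wnt ligands. Pluripotent cells held under BMP4 with Wnt secretion blocked lose pluripotency genes and take on genes of the amnion, the membrane around the embryo. Genes turned down early in such a switch include factors of the pluripotent state and of neural and endodermal fates, and some genes have separate roles in the starting and the later cell type.

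Library totals ran from 37957385 to 71333471 counts in the time series and from 15600931 (untreated) to 33989998 in the dose response. A count of 3, used as the floor of detection, was 0.042 to 0.079 CPM in the former and 0.088 to 0.192 CPM in the latter. Intervals given for ratios cover counting error only. Mitochondrial transcripts took 7.89% of the untreated library and 4.22 to 4.49% of the 5 others at 5 h, and 7.60% of 0 h replicate 1 against 4.29% of replicate 2. Pluripotency markers were high at 0 h, with POU5F1 at 1362 CPM, SOX2 at 382 CPM and NANOG at 131 CPM. At 42 h POU5F1 was still at 1145 CPM, while SOX2 was at 11.6 and NANOG at 1.08 CPM. The amnion factors GATA3, ISL1 and HAND1 had gone from 0.177, 0.384 and 0.0334 CPM to 322, 137 and 2919 CPM. The trophoblast markers CGA, CGB3, SIGLEC6 and GCM1 were at 0.163, 0, 0 and 0.359 CPM, against 0, 0.0412, 0 and 0.0597 CPM at 0 h.

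The 4 named genes with the steepest rise with LDN were PRICKLE1, CYP26A1, IRX2 and GADD45G, and their promoters are shown because their slopes were the largest. The windows run from 250 bases before to 50 bases after the start of transcription in RefSeq, build GRCh38.p14. PRICKLE1 lies at chr12:42483566-42483865 (minus strand), the second of 2 CYP26A1 windows at chr10:93073643-93073942 (plus strand), IRX2 at chr5:2751628-2751927 (minus strand) and GADD45G at chr9:89604762-89605061 (plus strand). Capitals mark matches, on either strand, to the motifs searched. These were GGCGCC and GTCTAGAC, both bound by SMAD proteins, ATTTGCAT, the octamer bound by OCT4, ATTGTT, part of the motif of SOX factors, and TATAAA, the core of the promoter element that positions RNA polymerase. The last was AGTTCA repeated in the same direction with 5 bases between, the layout that retinoic acid receptors bind.
PRICKLE1: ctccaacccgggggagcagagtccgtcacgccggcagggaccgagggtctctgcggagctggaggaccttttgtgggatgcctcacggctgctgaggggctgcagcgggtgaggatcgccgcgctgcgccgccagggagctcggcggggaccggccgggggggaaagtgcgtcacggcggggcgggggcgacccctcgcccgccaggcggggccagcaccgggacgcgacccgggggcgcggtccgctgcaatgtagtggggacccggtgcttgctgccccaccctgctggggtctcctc
CYP26A1: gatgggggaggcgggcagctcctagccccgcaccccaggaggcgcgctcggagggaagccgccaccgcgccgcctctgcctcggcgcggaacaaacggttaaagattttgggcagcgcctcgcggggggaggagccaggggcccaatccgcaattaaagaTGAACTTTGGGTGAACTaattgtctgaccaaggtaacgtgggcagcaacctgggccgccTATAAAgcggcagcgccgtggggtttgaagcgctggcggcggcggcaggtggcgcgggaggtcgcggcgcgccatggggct
IRX2: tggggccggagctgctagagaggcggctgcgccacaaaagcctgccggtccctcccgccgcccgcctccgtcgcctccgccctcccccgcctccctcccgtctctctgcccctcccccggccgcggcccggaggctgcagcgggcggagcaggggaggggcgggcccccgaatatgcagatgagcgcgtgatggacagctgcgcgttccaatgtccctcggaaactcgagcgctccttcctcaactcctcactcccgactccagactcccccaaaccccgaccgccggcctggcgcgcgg
GADD45G: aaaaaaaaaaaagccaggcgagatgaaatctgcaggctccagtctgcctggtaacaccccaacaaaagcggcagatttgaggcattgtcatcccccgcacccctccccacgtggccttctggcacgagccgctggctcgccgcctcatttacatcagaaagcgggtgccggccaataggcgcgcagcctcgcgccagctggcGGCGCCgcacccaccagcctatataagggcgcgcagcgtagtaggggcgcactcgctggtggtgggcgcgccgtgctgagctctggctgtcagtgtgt

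The first CYP26A1 window, which is not printed, held none of these motifs. The second held the retinoid repeat 90 bases before the start and TATAAA 31 bases before it. This repeat stood in 4 of all 35116 promoter windows (0.0114%), and among the 88 windows of the 60 matched genes only in this CYP26A1 window. GADD45G held GGCGCC 48 bases before its start. That motif was in 25 of the 88 windows (28.4%) against 19.2% of all windows, and the windows of these genes were also richer in G and C, with a median of 65.3% against 58.7%. ATTTGCAT was in 1 of the 88 windows (TNC) and in 1.77% of all, ATTGTT in 7 (7.95%) and 10.1%, TATAAA in 6 (6.82%) and 11.5%, and GTCTAGAC in 0 and 0.202%. The motifs do not overlap each other in the windows printed. A match of letters is a description and not a binding site.

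The genes differed in when they fell and how far they came back, and 15 were above their 0 h mean at 4 h. In bulk RNA, fewer cells with a transcript and less of it per cell cannot be told apart. As percent of the 0 h level their medians were 73.5, 38.5, 32.9, 40.005 and 66.3% at 4, 12, 20, 28 and 42 h. The lowest of the 3 middle values was at 12 h for 27 genes, at 20 h for 47 and at 28 h for 25. For 45 genes only 1 of these 3 times was at or under 40% of 0 h, for 27 it was 2 and for 27 all 3. With 1 library at each time, a single low value cannot be told apart from scatter of that library. The genes that dipped and did not recover were at a median of 84.2% at 4 h and went on down to 11.5% at 42 h, and all 13341 genes had a median of 83.4% at 42 h.

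**Figure D1:**
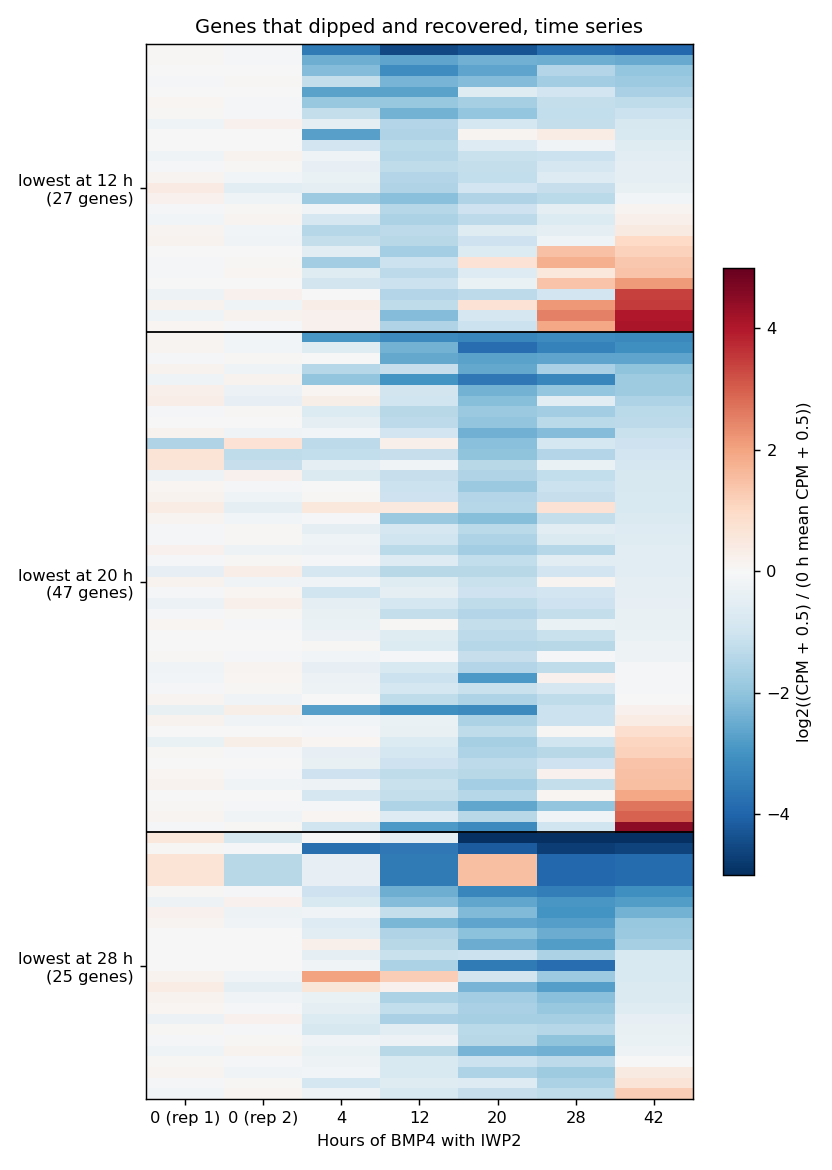
Change of each of the 99 genes (rows) from the 0 h mean, as log2 of (CPM + 0.5), in the 7 time-series libraries (columns), grouped by the time of the lowest value. Blue is below and red above 0 h, and most rows are blue at 12 to 28 h and end paler, blue or red, at 42 h.

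The genes ended at widely different levels. At 42 h, 28 genes were at or above the 0 h mean, 40 lay between 50% and 100% of it, 25 were above the floor but under 50%, and 6 were at or under 3 counts. Of the 99, 26 were above the higher 0 h library at 42 h and 63 were no higher than the lower one. The ratio of 42 h to the lowest value had a counting interval wholly above 1 for 90 genes. It reached 1 or below for 8, and ENSG00000100101 had 0 counts at both times and met the rule only as 0 against 0. The 6 genes at the floor at 42 h were ENSG00000100101, OLIG3, FGF8 and a trio of features with identical counts in every library. Those 6 were not higher again in any measurable sense.

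Some genes ended far above the starting level. PKDCC, a secreted tyrosine kinase of skeletal development, gave 75.5 and 98.6 CPM at 0 h and then 100.4, 18.9, 48.9, 498 and 1388 CPM at 4, 12, 20, 28 and 42 h, the order kept for all courses given here. It was lowest at 12 h, and its 42 h value was 73.3-fold (95% interval 68.95 to 77.9) the lowest. CYP26A1, the enzyme that degrades retinoic acid, gave 4.64 and 4.96 CPM at 0 h and then 2.18, 0.215, 0.0825, 2.13 and 117 CPM. Its lowest value rested on 5 counts, and its 42 h value was 1417-fold (95% interval 607 to 4364) the lowest and 2436% of 0 h. Both genes dipped below each 0 h library before rising past both. CCBE1, a lymphatic growth regulator, had the second largest ratio, with a 42 h value 619-fold (95% interval 171 to 5116) the lowest, which rested on 2 counts. A large ratio did not always bring a gene back to its start. ENSG00000285901, at 0 counts at its lowest, rose at least 58.7-fold against the floor of 3 counts and ended at 91.6% of 0 h. Its 0 counts were in the 20 h library alone, between 1.25 CPM at 12 h and 3.81 CPM at 28 h. It overlaps CCND2 and TIGAR on the same strand, and the part of shared reads in its dip was not tested. SERF1A alone rose 26.1-fold (95% interval 9.89 to 97.4) to 53.7%. Summed with its near-identical copy SERF1B, it went down from 12.6 CPM at 28 h to 10.6 CPM at 42 h. CCBE1 and ENSG00000285901 were named after their values were seen.

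Among the other genes of at least 10 times the 0 h level at 42 h were LRP2, an endocytic receptor, PKNOX2, a homeobox factor, and TFEB, a lysosomal regulator, which were named after their values were seen. LRP2 went from 4.44 ± 0.391 CPM (SD, n = 2) to 1.25 at 12 h and 83.5 CPM at 42 h. PKNOX2 went from 3.44 ± 0.7995 CPM (SD, n = 2) to 1.15 and then 44.4 CPM, and TFEB from 3.01 ± 0.834 CPM (SD, n = 2) to 0.788 and then 37.01 CPM. In all, 19 genes reached at least 2 times the 0 h level and 5 at least 10 times.

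TNC, the matrix glycoprotein tenascin C, gave 12.5 and 9.81 CPM at 0 h and then 11.96, 6.88, 3.98, 9.82 and 88.9 CPM, so that only the last library stood above both at 0 h. FEZ1, a kinesin adaptor, gave 27.2 and 42.3 CPM at 0 h and then 37.2, 21.3, 10.6, 17.3 and 73.7 CPM. S100A10, the partner of annexin A2, gave 41.3 and 37.8 CPM at 0 h and then 30.005, 21.4, 13.4, 14.7 and 88.04 CPM. These 3 shared a low point at 20 h and a 42 h value above both 0 h libraries. LPIN1, a phosphatidate phosphatase, had 5.43 CPM at 20 h and 41.6 at 42 h against 14.9 ± 1.32 CPM (SD, n = 2) at 0 h. TMPRSS2, a membrane protease, was lowest at 12 h with 6.701 CPM, had passed 0 h by 28 h with 25.1 CPM and reached 47.1 at 42 h from 17.4 ± 1.71 CPM (SD, n = 2).

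The most abundant gene at 0 h, SFRP1, a secreted Wnt antagonist, came back partly. It gave 442 and 422 CPM at 0 h and then 379, 144, 36.8, 30.4 and 254 CPM, a fall to 7.05% of 0 h and a return to 58.8%. UGP2, which makes UDP-glucose, had the shallowest dip but 1 and gave 278 and 267 CPM at 0 h and then 221, 180.4, 108, 125 and 217 CPM. SLC29A1, a nucleoside transporter, gave 223 and 221 CPM at 0 h and then 153, 77.3, 53.1, 39.8 and 61.03 CPM. AK4, a mitochondrial adenylate kinase, stayed low and gave 178 and 147 CPM at 0 h and then 107, 30.8, 11.2, 14.996 and 18.9 CPM. In SLC29A1 and AK4 the 42 h value was above the lowest but under each value at 0 and 4 h. PRUNE2 and SERINC5, the latter a membrane protein that restricts retroviruses, were at 46.3 and 65.3% of 0 h at 42 h after lowest values of 18.4 and 26.4%.

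Further genes that ended above both 0 h libraries were FST, COL14A1, NRP1 and KLF15. FST gave 11.6 and 14.2 CPM at 0 h and then 10.7, 7.51, 5.59, 5.06 and 31.3 CPM. COL14A1 gave 31.01 and 25.02 CPM at 0 h and then 25.6, 16.2, 9.21, 7.79 and 38.2 CPM, and NRP1 9.46 and 9.098 CPM at 0 h and then 7.15, 4.28, 3.3997, 4.25 and 25.5 CPM. In these 3 every value from 12 to 28 h was under both at 0 h. KLF15 gave 8.22 and 10.2 CPM at 0 h and then 4.94, 2.74, 3.37, 5.53 and 11.01 CPM, with its low point earlier, at 12 h.

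A larger set ended between its lowest and its 0 h level. HEY2 gave 48.2 and 41.5 CPM at 0 h and then 11.6, 11.7, 14.03, 19.2 and 18.3 CPM, and had lost most of its level by 4 h. KCNN2 gave 60.8 and 49.02 CPM at 0 h and then 35.3, 10.9, 8.35, 7.63 and 14.3 CPM, and GABRA5 16.4 and 16.3 CPM at 0 h and then 11.4, 6.34, 3.76, 6.14 and 6.36 CPM. BMP2 gave 13.8 and 15.2 CPM at 0 h and then 6.001, 2.45, 2.84, 3.96 and 3.81 CPM. In these 4 the 42 h value was under 50% of 0 h. EPHA4 came back to 56.5%, with 13.9 and 12.03 CPM at 0 h and then 13.2, 5.86, 3.27, 5.94 and 7.34 CPM, and COL12A1 to 65.1%, with 7.01 and 4.99 CPM at 0 h and then 4.88, 2.06, 1.47, 1.896 and 3.91 CPM. At 4 h EPHA4 was still between its 0 h libraries and COL12A1 just under both. FOXJ1 gave 8.04 and 8.37 CPM at 0 h and then 1.41, 0.502, 0.908, 2.69 and 1.797 CPM, and C6orf141 gave 5.77 and 7.88 CPM at 0 h and then 1.39, 0.42999, 0.116, 0.254 and 1.63 CPM. Both had dropped steeply by 4 h and ended far under 0 h.

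IRX2 and GADD45G dropped sooner than the rule looks. IRX2, a homeobox factor, gave 95.001 and 94.2 CPM at 0 h and then 14.01, 32.8, 103, 122 and 56.02 CPM. Its lowest value of all was at 4 h, 14.8% of 0 h, and it was above 0 h at 20 and 28 h and below it again at 42 h. GADD45G, a stress and differentiation regulator, gave 10.9 and 17.9 CPM at 0 h and then 1.699, 1.27, 1.12, 6.55 and 16.6 CPM, with 4 h already near its lowest. IRX2, HEY2, ENSG00000282048 and ENSG00000289075 were the 4 genes lower at 4 h than at any of the 3 later low times.

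**Figure D2:**
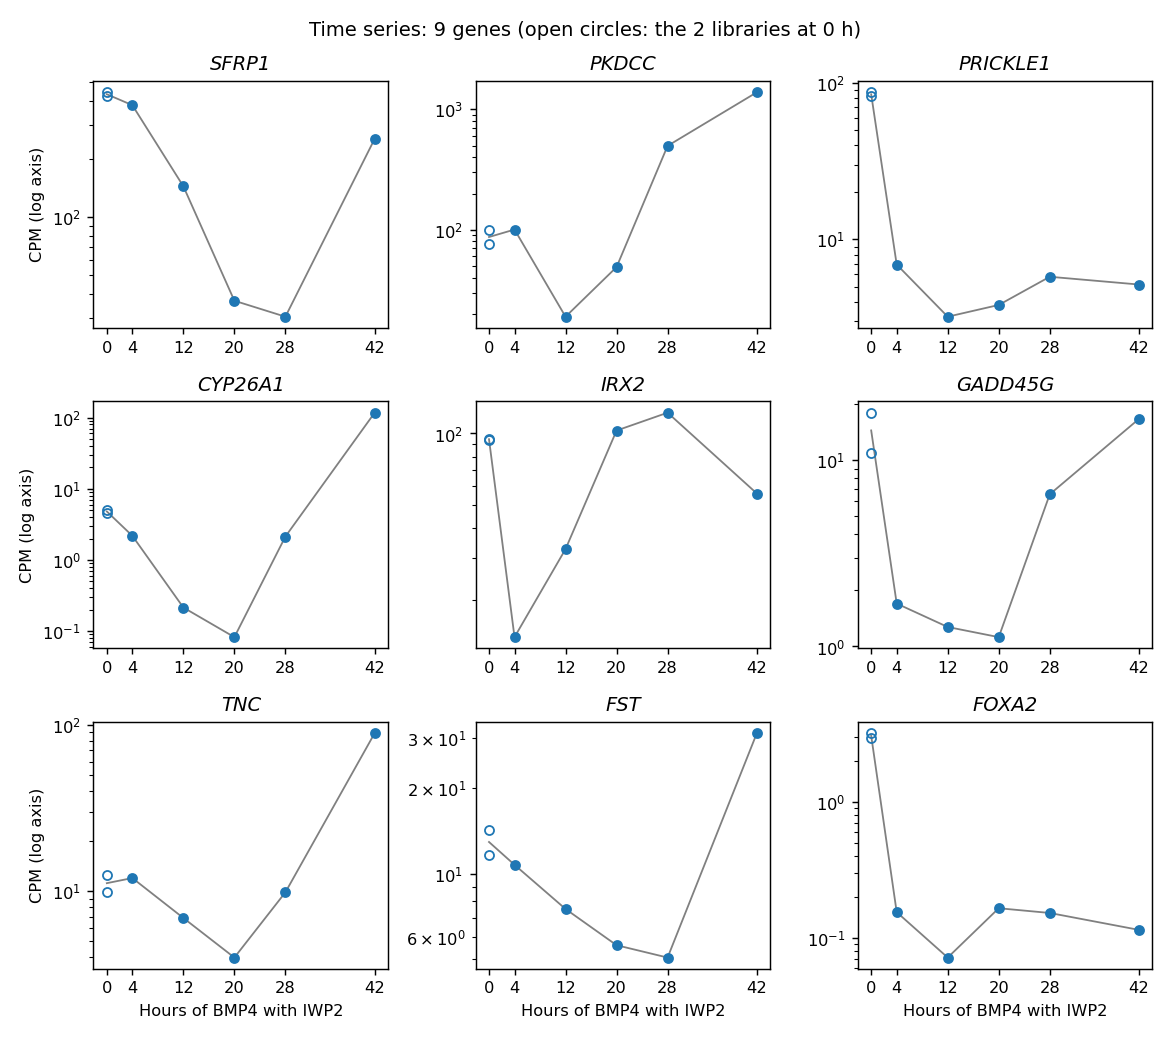
CPM on a log axis against hours of BMP4 with IWP2 for 9 genes. Open circles are the 2 libraries at 0 h and filled circles the single library at each later time. PKDCC, CYP26A1, TNC and FST end above 0 h, SFRP1 and IRX2 below it but well above their lowest, GADD45G between its 0 h libraries, and PRICKLE1 and FOXA2 far below.

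Several genes met the rule from a near-total loss with a small rise. PRICKLE1, a planar cell polarity protein, gave 87.02 and 81.8 CPM at 0 h and then 6.91, 3.21, 3.81, 5.77 and 5.15 CPM. Its 42 h value was 1.61-fold (95% interval 1.33 to 1.94) the lowest but 6.097% of 0 h. FOXA2, the endoderm forkhead factor, gave 3.19 and 2.92 CPM at 0 h and then 0.154, 0.0717, 0.165, 0.152 and 0.114 CPM, and its rise of 1.596-fold (95% interval 0.406 to 7.44) rested on 4 and 7 counts. FOXB1, a forkhead factor of neural tissue, went from 13.7 ± 0.7703 CPM (SD, n = 2) to 0.0508 CPM at 28 h and 0.0817 at 42 h, on 3 and 5 counts. HESX1, a homeobox repressor of the anterior neural plate, went from 6.103 ± 0.423 CPM (SD, n = 2) to 0.102 CPM and then 0.294. FGF8, a growth factor of gastrulation, gave 2.61 and 2.86 CPM at 0 h and then 2.69, 0.0537, 0, 0.0169 and 0.0163 CPM, with 0 counts at the lowest and 1 at 42 h. The intervals of FOXA2, FOXB1 and FGF8 include no change.

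Genes close to the thresholds show how fine the choice was. LHFPL2 and UGP2 were just inside the dip limit at 0.399 and 0.398 of 0 h, and ENSG00000267059 and MTSS1 just outside at 0.401 and 0.411. SLC29A1 and BMP2 recovered by 1.53 and 1.55 times, and FAT4 and SNORD3A were left out at 1.48 times each. C14orf28 and RPL7P9 had 2.57 and 2.61 CPM at 0 h, and ENSG00000286511 and MYRIP, at 2.49 CPM each, were left out.

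In the dose response, which asks whether less BMP receptor activity leaves these genes higher at 5 h, most of those tested rose with LDN. A mean of 1 CPM or more in the 5 libraries with BMP4 was required, which 86 of the 99 had. Of these 49 (57.0%) rose over the dose steps 0 to 4 by the quasi-likelihood test of edgeR, adjusted by Benjamini-Hochberg over all 14907 genes tested, where 10.4% rose. None fell, with 0 at an unadjusted p under 0.05 and 0 in DESeq2, though up to 2 did with 1 dose left out, while 10.9% of all genes tested fell. The slope, the log2 change per dose step, had a median of 0.117 over the 86 genes and -0.00068 over all, and was above 0 for 72 of the 86. The 49 had slopes between 0.05 and 0.82 (median 0.23) and a median ratio of 300 to 0 nM of 1.76. The CPM climbed at every one of the dose steps for 29 of the 86 genes against 6.62% of all genes tested.

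**Figure D3:**
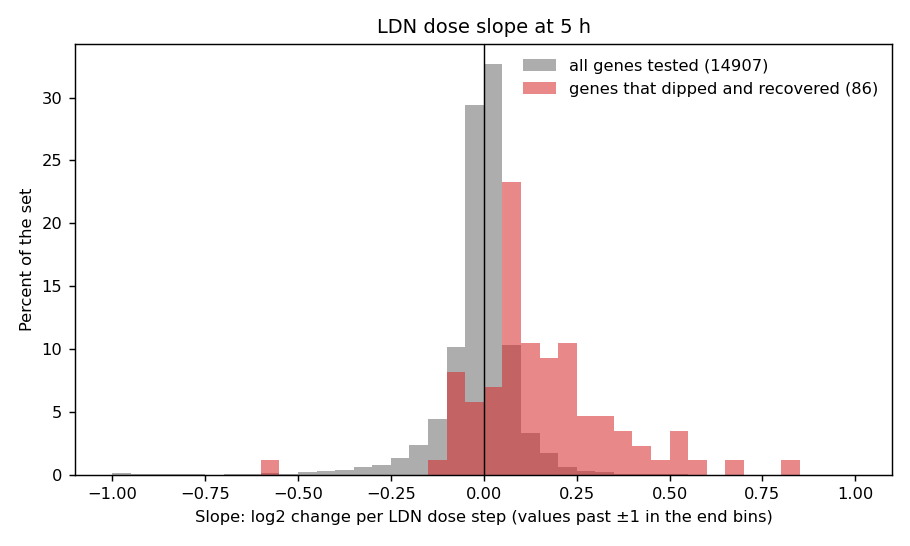
Distribution of the LDN dose slope at 5 h (log2 change per dose step, x axis) as the percent of each set (y axis), for the 86 genes that dipped and recovered (red) and all 14907 genes tested (grey). The red bars lie mostly above 0, with a median of 0.117, and the grey bars are centred near 0.

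Genes that dipped and stayed low also rose with LDN. Of the 631 tested genes that dipped without recovery, 285 (45.2%) rose and 15 (2.38%) fell, with a median slope of 0.08. The difference between both shares was not tested. Within the 86, 14 of 26 genes at or above 0 h at 42 h rose, 20 of 38 between 50% and 100%, 15 of 18 under 50% and 0 of 4 at the floor, of which 3 are the features with identical counts. With that trio counted once, 49 of 84 genes rose, 0 of 2 of those at the floor and 17 of 23 of those lowest at 28 h. By time of the lowest value, 13 of 21 with a low point at 12 h rose, 19 of 40 at 20 h and 17 of 25 at 28 h. Of genes already at or under 50% of 0 h at 4 h, 14 of 19 rose, against 35 of 67 of the rest.

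The 4 steepest rises were those of the genes whose promoters are shown. PRICKLE1 had 3.34, 7.59, 13.1, 25.3 and 36.1 CPM at 0, 10, 30, 100 and 300 nM LDN and 43.3 CPM untreated. Each dose was above the one before, with a slope of 0.82 ± 0.039 (SE), adjusted p = 4.6e-08. CYP26A1 had 1.18, 2.24, 4.396, 7.65 and 7.301 CPM over the same doses and 5.38 untreated, so both highest doses were above the untreated library, and its slope was 0.65 ± 0.080 (SE), adjusted p = 9.1e-05. For IRX2 the doses gave 11.97, 17.5, 23.9, 41.9 and 55.8 CPM and untreated cells 45.6, with a slope of 0.58 ± 0.024 (SE), adjusted p = 2.4e-08. GADD45G stayed low until the last doses, with 1.64, 2.29, 2.31, 3.57 and 7.51 CPM and 7.56 untreated, at a slope of 0.55 ± 0.072 (SE), adjusted p = 1.5e-04. Without the 300 nM library the GADD45G slope was 0.35 (adjusted p = 0.021), and it was then no longer among the 4 steepest.

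**Figure D4:**
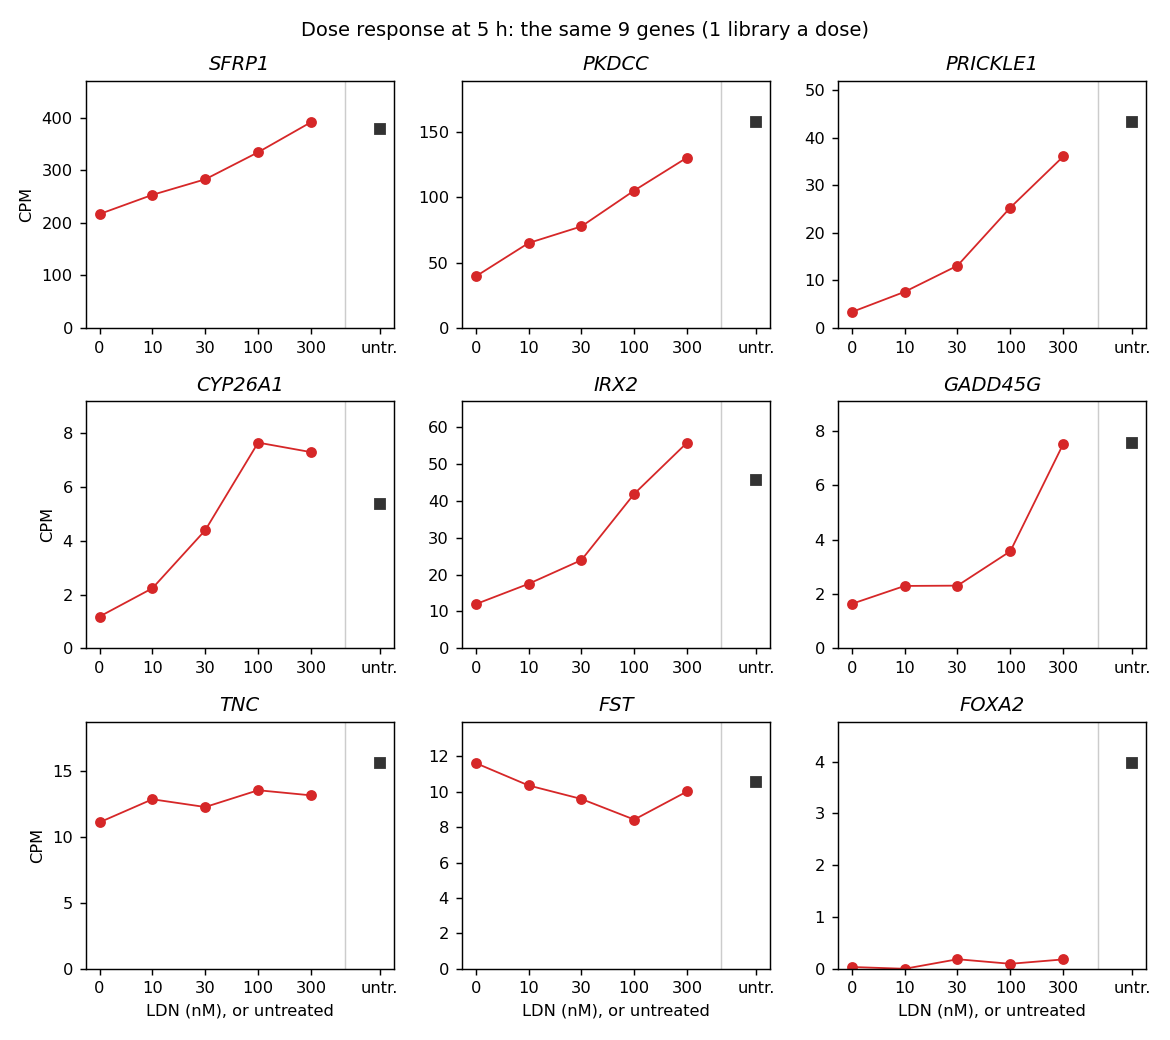
CPM at 5 h against LDN dose with BMP4 and IWP2 (red circles, 1 library each) and in the untreated library (black square) for the 9 genes of the time-course panels, each y axis starting at 0. PRICKLE1, IRX2, SFRP1 and PKDCC climb at each dose, TNC and FST do not climb steadily, and FOXA2 stays near 0 while the untreated library has 3.97 CPM.

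The genes are taken by role next. These groups were made after the values were seen, from the 99 genes alone, and hold 58 of them, so their counts describe these genes only and stand beside the 57.0% of the 86 and 10.4% of all genes that rose. Of the transcription factors among them, 7 of 8 tested rose. The list of SOX, KLF and forkhead factors, a different set that also holds FOXB1, FOXJ1 and KLF15, had 6 rising and 6 falling of 22. FOXJ1, the regulator of motile cilia, had 0.626, 0.736, 0.861, 1.96 and 2.23 CPM with rising LDN (slope 0.53 ± 0.090 (SE), adjusted p = 0.00113). Its untreated level of 6.99 CPM was well above all doses. HEY2, a target and effector of Notch, had 7.86, 9.41, 8.48, 12.7 and 14.5 CPM (slope 0.23 ± 0.038 (SE), adjusted p = 0.00104) and 20.8 untreated, and its 30 nM value was below its 10 nM value. HESX1 had 4.49, 6.97, 8.95, 11.5 and 12.3 CPM, a steady climb (slope 0.35 ± 0.041 (SE), adjusted p = 5.8e-05), and KLF15, a metabolic zinc finger factor, had 4.04, 5.27, 6.64, 7.78 and 10.4 CPM, likewise without a step down (slope 0.33 ± 0.035 (SE), adjusted p = 2.6e-05). FOXB1 rose from 0.939 to 2.53 CPM (slope 0.34 ± 0.081 (SE), adjusted p = 0.00909) and lost its call without the 0 nM or the 300 nM library (adjusted p = 0.061 and 0.15). FOXA2, OLIG3, PROX1, PKNOX2 and TFEB had too few counts at 5 h to be tested.

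FOXA2 stood apart from the rising factors. Its 5 libraries with BMP4 held 0.0348, 0, 0.184, 0.0965 and 0.181 CPM, near the floor, and the untreated library 3.97 CPM, so 300 nM LDN closed 3.71% of the gap. For FOXJ1 that share was 25.3%, for FOXB1 32.6% and for HESX1 107%. These shares compare single libraries, and the untreated one also lacked IWP2 and RI.

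Of the secreted signals and antagonists, 4 of 7 tested rose. SFRP1 had 217, 253, 283, 335 and 392 CPM and 379 untreated, a climb at every dose with a slope of 0.21 ± 0.010 (SE), adjusted p = 3.6e-08. BMP2, a BMP ligand itself, had 2.68, 3.24, 3.14, 4.503 and 5.01 CPM (slope 0.23 ± 0.051 (SE), adjusted p = 0.00598), lower at 30 than at 10 nM, and lost its call without the 300 nM library (adjusted p = 0.070). WNT5A, a Wnt ligand of the noncanonical kind, had 1.11, 1.15, 2.03, 1.87 and 2.23 CPM (slope 0.27 ± 0.079 (SE), adjusted p = 0.0301), and CCBE1 2.23, 2.18, 2.58, 3.602 and 3.71 CPM (slope 0.23 ± 0.058 (SE), adjusted p = 0.0151). The WNT5A call was lost without the 0, 10, 100 or 300 nM library (adjusted p = 0.16, 0.090, 0.055 and 0.10) and in DESeq2 (adjusted p = 0.082), and that of CCBE1 without 300 nM (adjusted p = 0.078). FST, which encodes the activin and BMP antagonist follistatin, had 11.6, 10.4, 9.59, 8.43 and 10.02 CPM and 10.6 untreated, an estimate of -0.07 ± 0.035 (SE), adjusted p = 0.20, with the doses above and below the untreated value. Without the 300 nM library its slope was -0.14 and was called as falling (adjusted p = 0.040). FGF8 was at 0.174, 0.118, 0.154, 0.579 and 0.754 CPM, too low to test, with 1.79 untreated.

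Of the matrix genes among the 99, 5 of 8 rose. PKDCC had 39.4, 64.96, 77.7, 105 and 130.4 CPM and 157 untreated, with every dose above the one before (slope 0.41 ± 0.024 (SE), adjusted p = 1.7e-07). COL14A1, a fibril-associated collagen, had 21.5, 22.98, 24.4, 26.6 and 27.2 CPM (slope 0.09 ± 0.019 (SE), adjusted p = 0.00494), a smaller climb that missed the threshold without the 0 nM library (adjusted p = 0.052). The related collagen COL12A1 had 2.89, 3.09, 3.41, 3.35 and 3.47 CPM, with an estimate of 0.07 ± 0.052 (SE), adjusted p = 0.40. TNC had 11.1, 12.9, 12.3, 13.6 and 13.2 CPM and an estimate of 0.06 ± 0.028 (SE), adjusted p = 0.17. Neither COL12A1 nor TNC was called. A slope as large as that of COL14A1 lay within 2 SE of both estimates, so these data do not set them apart.

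Of the genes of metabolism and transport among the 99, 8 of 10 tested rose. The glycolysis and hypoxia list, a different set that also holds AK4, had 8 rising and 7 falling of 41. AK4 had 61.3, 71.3, 86.1, 109 and 123 CPM and 184 untreated (slope 0.27 ± 0.013 (SE), adjusted p = 5.6e-08), SLC29A1 96.5, 116, 128, 153 and 166 CPM and 258 untreated (slope 0.20 ± 0.012 (SE), adjusted p = 3.3e-07). Both climbed at every dose and at 300 nM were still under the untreated library, with 50.7 and 43.1% of the gap closed. LPIN1 went past it, with 6.89, 9.56, 10.4, 16.2 and 18.9 CPM against 14.4 untreated (slope 0.37 ± 0.032 (SE), adjusted p = 4.8e-06). UGP2 changed by little, with 277, 290.1, 314, 326 and 331 CPM and 411 untreated (slope 0.07 ± 0.011 (SE), adjusted p = 3.6e-04), and SERINC5 had 42.03, 46.7, 47.2, 56.4 and 63.1 CPM and 98.9 untreated (slope 0.15 ± 0.016 (SE), adjusted p = 3.2e-05).

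Of the receptors and channels 4 of 6 rose, and of the proteins of signalling inside the cell, PRICKLE1 and GADD45G among them, 6 of 7. KCNN2, a calcium-activated potassium channel, had 13.9, 17.5, 20.96, 30.3 and 34.3 CPM and 40.96 untreated, and GABRA5, a GABA receptor subunit, 8.84, 10.4, 11.3, 13.7 and 13.6 CPM and 16.2. Their slopes were 0.34 ± 0.024 (SE), adjusted p = 8.3e-07 and 0.17 ± 0.029 (SE), adjusted p = 0.00149, in that order. NRP1, a co-receptor of semaphorins and VEGF, had 4.28, 4.88, 5.56, 5.05 and 6.91 CPM (slope 0.15 ± 0.044 (SE), adjusted p = 0.0306) and lost its call without the 0, 10 or 300 nM library (adjusted p = 0.16, 0.060 and 0.38, the slope being 0.09 without 300 nM) and in DESeq2 (adjusted p = 0.086). EPHA4, an ephrin receptor, had 6.92, 7.53, 7.01, 7.53 and 8.27 CPM and 6.54 untreated, with an estimate of 0.05 ± 0.034 (SE), adjusted p = 0.29 and no call. PRUNE2 rose with 68.5, 74.1, 73.9, 80.4 and 86.6 CPM (slope 0.08 ± 0.013 (SE), adjusted p = 4.9e-04). C6orf141 had 1.01, 2.44, 3.47, 4.08 and 5.58 CPM and 6.79 untreated (slope 0.51 ± 0.072 (SE), adjusted p = 2.6e-04).

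Of the cytoskeleton and membrane scaffold genes 3 of 6 rose. S100A10 had 31.1, 35.95, 34.3, 39.5 and 38.5 CPM (slope 0.08 ± 0.021 (SE), adjusted p = 0.0182), and was not called without the 0 nM or the 100 nM library (adjusted p = 0.22 and 0.061, the slope being 0.05 without 0 nM) nor with the untreated library added as a further step (adjusted p = 0.056). FEZ1 had 27.7, 29.5, 30.6, 27.98 and 30.2 CPM and an estimate of 0.02 ± 0.021 (SE), adjusted p = 0.52. In these groups OLIG3, PROX1, WNT5A and CCBE1 were named after their values were seen.

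A few genes moved otherwise at 5 h. TMPRSS2 had 8.38, 7.502, 6.33, 7.65 and 6.82 CPM and 21.1 untreated, so that the treated libraries were all under the untreated one and LDN closed -12.3% of the gap (estimate -0.05 ± 0.039 (SE), adjusted p = 0.38). PDE4B, a phosphodiesterase that breaks down cyclic AMP, was up at 4 h in the time series (5.295 and 4.05 CPM at 0 h and then 20.4, 11.6, 2.24, 0.965 and 2.58 CPM) before it dipped. It was also up in the dose response, with 25.1, 27.9, 27.5, 26.3 and 20.8 CPM against 8.59 untreated (estimate -0.06 ± 0.032 (SE), adjusted p = 0.23). The PDE4B slope was -0.13 and called as falling without the 0 nM library (adjusted p = 0.023), and 0.02 without 300 nM (adjusted p = 0.72). Only PDE4B, ELAC1, C14orf28 and ENSG00000277067 were higher with BMP4 and 0 nM LDN than untreated past 1.5-fold, and all but C14orf28 were named after their values were seen.

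Against the untreated library, 0 nM LDN with BMP4 gave lower values past 1.5-fold, on log2 of (CPM + 0.5), for 52 of the 90 genes whose mean over both was 1 CPM or more, where 5.34% of all 14893 genes were lower. It gave higher values for 4 of 90, where 13.8% of all were higher. With 1 library a side this has no test. The median log2 difference was -0.77 over the 90 genes, -0.46 over the 634 that dipped without recovery and 0.10 over all. For the 41 genes with untreated at least 1 CPM and at least 2 times the 0 nM level, 300 nM LDN closed a median of 50.1% of the gap, from -12.3% to 161%. It closed at least 50% for 21, under 25% for 7 and over 100% for 8. The 2 libraries that chose these genes also set the gap, so these shares describe the chosen genes only. The part of counting error in them was not tested. The set includes genes under the floor of detection at 0 nM LDN. OLIG3, whose share is the median, and FOXA2 had 1 count each there, and UTP14C and ENSG00000100101 had 0. The untreated library differed from the rest in depth and mitochondrial share, as given above, and the part of these in the gap was not tested.

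Both experiments hold an early view of the same treatment, at 4 h against 0 h and at 5 h against untreated. Of the 31 genes lower past 1.5-fold at 4 h among the 90, 24 (77.4%) were lower past 1.5-fold at 5 h, against 51.9% of the 322 such genes among the 13135 with values in both. Across the 90 genes the changes gave a Pearson r of 0.47 and a Spearman rho of 0.32, and across the 13135 genes 0.63 and 0.46. These are descriptions across genes that share 4 groups of libraries and are not independent. The 0 h level, which is the base of the 4 h change, was also used by the rule.

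**Figure D5:**
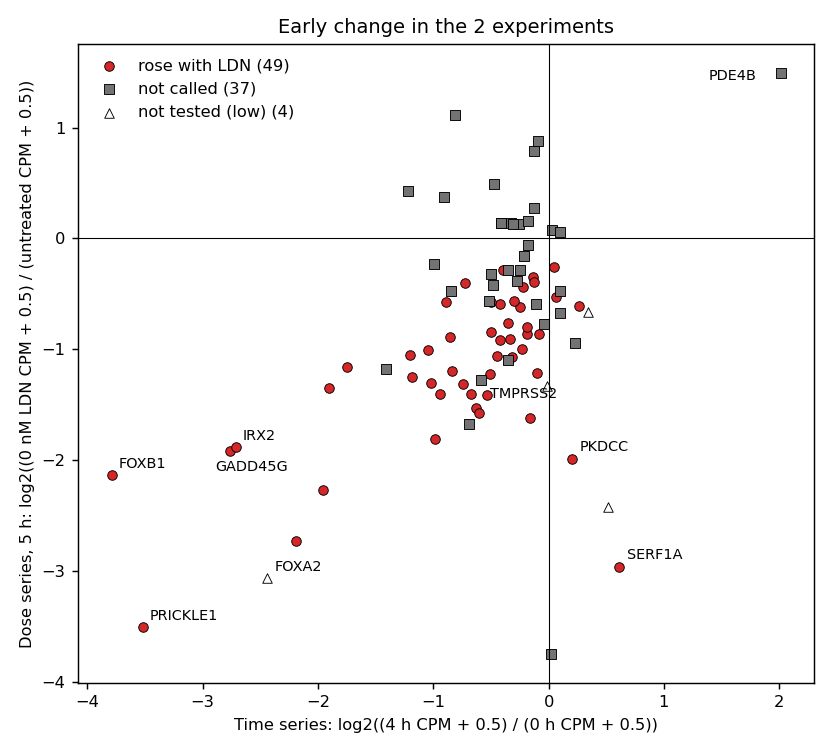
Each of 90 genes by its log2 change at 4 h from 0 h in the time series (x axis) and at 5 h without LDN from the untreated library (y axis), both on CPM + 0.5. Red circles rose with LDN (49), grey squares were not called (37) and open triangles were too low to test (4). PRICKLE1 and FOXB1 are low on both axes, PDE4B is high on both, and PKDCC and SERF1A are low on the y axis only. Summed with its copy SERF1B, SERF1A had 63.7 CPM without LDN and 57.2 CPM untreated.

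Lists of pathways and cell states, chosen with earlier results of these data known, hold the other genes around these and are read against the 10.4% rising and 10.9% falling of all genes tested. Of all 13341 genes 0.742% were among the 99 and 5.72% dipped. Of 35 pluripotency factors with at least 2.5 CPM at 0 h 19 dipped and 0 were among the 99. Of all 763 genes that dipped, 99 recovered, and the difference was not tested. Of 37 pluripotency factors tested with LDN 21 rose and 4 fell. For the BMP targets and feedback genes, with 0 of 11 among the 99, and the amnion list, with 0 of 7, the share of all genes would give fewer than 1. Both were too short for such a gene to be looked for. With LDN 14 of 17 BMP targets and feedback genes tested fell and 1 rose, a median slope of -0.49, and 11 of 15 amnion genes fell and 0 rose. Notch genes, with HEY2, had 9 of 17 rising and 3 falling, and Wnt targets, with SFRP1 and CYP26A1, 6 and 5 of 18. The matrix and integrin list held TNC, COL12A1 and COL14A1 and gave 13 rising and 8 falling of 56. In the cholesterol and fatty acid list, where LPIN1 belongs, LPIN1 was the 1 riser of 36 and 26 fell. SOX, KLF and forkhead factors held FOXB1, FOXJ1 and KLF15.

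By type, 81 of the 99 were protein coding (81.8%, against 91.1% of all 13341), 13 long noncoding (13.1% against 5.97%), 2 pseudogenes and 3 other. The identical trio makes up 3 of these 13. Of the genes that dipped without recovery 80.0% were protein coding and 16.1% long noncoding. Of the long noncoding genes tested with LDN 3 of 8 rose, with the identical trio counted once, against 4.95% of the 1110 long noncoding genes tested in all. A few lay side by side in the GRCh38 annotation (GENCODE release 44). IRX2 (chr5:2745845-2751677) and the long noncoding ENSG00000289075 (chr5:2756465-2758583) start 4788 bases apart on opposite strands. ENSG00000289075 had 2.79 and 3.13 CPM at 0 h and then 0.529, 1.15, 5.22, 11.4 and 8.33 CPM, the same fall at 4 h and peak at 28 h as IRX2, and rose with LDN (0.696, 1.0003, 1.29, 1.54 and 2.38 CPM, slope 0.42 ± 0.075 (SE), adjusted p = 0.00159), a call lost without the 300 nM library (adjusted p = 0.056). ADAMTS16, a matrix protease gene (chr5:5140330-5320304), and its divergent transcript ADAMTS16-DT start 177 bases apart. They had 15.8 ± 0.132 CPM (SD, n = 2) and 9.97 ± 0.243 CPM (SD, n = 2) at 0 h, 13.04 and 5.64 CPM at 42 h, and slopes of 0.15 ± 0.026 (SE), adjusted p = 0.00143 and 0.19 ± 0.034 (SE), adjusted p = 0.00199.

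Some values could not be assigned to 1 gene with confidence. SERF1A had 4.37 and 2.201 CPM at 0 h and then 5.29, 3.94, 0.264, 0.0677 and 1.76 CPM, and its near-identical copy SERF1B is also measured. Their sum was 19.3 CPM at 0 h and at its lowest 65.4% of that, so the summed pair would not have met the rule. SERF1A was called as rising with LDN (2.33, 24.2, 18.9, 36.2 and 28.9 CPM, slope 0.49 ± 0.153 (SE), adjusted p = 0.0373), a call lost in 7 of 12 alternatives, while the sum was 63.7, 65.3, 64.9, 69.9 and 69.3 CPM. The 7 were DESeq2, log2 of LDN as the dose, SMAD4 as a covariate, the untreated library added, and the fits without 0, 30 or 100 nM (adjusted p = 0.23, 0.058, 0.054, 0.27, 0.18, 0.056 and 0.10). Without 0 nM the SERF1A slope was 0.17, and without 10 or 300 nM it was 0.78 and 0.77. U2AF1 and its copy U2AF1L5 likewise came to 157 CPM at 0 h and at the lowest 62.4% of it together, against 35.02% for U2AF1 alone. ENSG00000280614, ENSG00000280800 and ENSG00000281181 had the same counts as each other throughout and count as 1 measurement. They gave 11.8 and 2.45 CPM at 0 h and then 5.25, 0.161, 20.9, 0 and 0.0327 CPM, a course with no steady dip. In the polyA-selected dose response each had 526, 586, 692, 823 and 566 CPM with rising LDN and 476 untreated. These were far above every time-series value, and the part of the library type in this was not tested. In all, 7 genes overlapped another expressed gene on the same strand and 13 one on the other strand, FEZ1, GABRA5 and PRICKLE1 among the latter. Whether counting used strand is not given in the sources used here. In 7 genes the 0 h libraries were more than 2-fold apart.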

How the data were processed

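Bulk RNA-seq of 13 libraries of RUES2 cells with a GFP::SMAD4 fusion was analysed: 7 of a time series and 6 of a dose response. Reads had been trimmed (Cutadapt), aligned to GRCh38 with STAR 2.7.8a and quantified with RSEM 1.3.3 by the authors. The deposited tables hold expected counts, whole numbers not scaled for depth, and FPKM values that the authors scaled for depth and gene length, used here for an alternative only. The tables of both experiments were prepared with different RNA kits and library types and were tested separately.

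CPM was computed on the total of each column. The genes and the gene lists were chosen with earlier results of these data known. The LDN trend was fitted with edgeR 4.0.16 (R 4.3.3, TMM, quasi-likelihood test, rounded counts, dose step as a linear term) on every gene averaging 1 CPM or more in the 5 BMP4 libraries, at an adjusted p of 0.05. With 1 library a dose, scatter about the line was the error, and p-values measure the spread between these libraries only. DESeq2 1.42.0 was an alternative. The SMAD4 level of the study's source data served as another. On simulated data with 14907 genes, 76 of 100 genes with a slope of 0.15 and 99 of 100 with 0.3 were found, with 9 false calls. The simulation gave every gene the same assumed dispersion and exactly linear trends, so these rates need not hold for the real counts. Ratios of 42 h to the lowest value carry exact 95% intervals conditional on the summed counts. They do not allow for the choice of genes by that same ratio. For 0 nM LDN against untreated, 0.5 CPM was added and 1.5-fold counted as changed.

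Genes were named by rule among those with a symbol: the 8 highest at 0 h, the 8 largest recoveries of at least 10 CPM at 0 h, the 8 largest rising and falling slopes past the threshold, those in a fixed list, and the 2 genes on each side of each threshold. Others were named after their values were seen. Positions came from GENCODE release 44, which matched all 99, and promoters from RefSeq, which matched 60. No promoter on chromosome 8 was printed. Python 3.11.15, pandas 2.3.3, numpy 2.4.6, scipy 1.17.1 and matplotlib 3.10.9 were used.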

Additional observations from a re-analysis of the deposited data

How the results depend on the processing

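The choice of genes moved with the dip limit, to 56 genes at 0.3 and 157 at 0.5 in place of 99. It stayed within 1.5 times with TMM factors (116, of which 94 shared), DESeq2 size factors (119, 96 shared), FPKM (116, 89 shared), a recovery of 2 (68) and a 0 h minimum of 5 CPM (69). With 1 of the 0 h libraries left out it was 95 to 102, of which 82 and 87 were shared. Alternatives added after seeing the data gave 93 genes with 42 h above 3 counts and 90 with a recovery interval above 1. The number rising with LDN was 35 to 54 under the other settings, 42 in DESeq2 and 37 to 46 with a dose left out. It was 49 among the 93 genes and 41 among genes kept with each 0 h library alone and with TMM factors. The number falling was 1 without the filter on low counts (ENSG00000277067) and ranged from 0 to 2 with a dose left out. It was 2 without 0 nM (PDE4B and ENSG00000100101), 1 without 30 nM (ENSG00000277067) and 2 without 300 nM (FST and ENSG00000277067), and the cause was not tested. Counts against the untreated library were 52 to 57 lower and 4 higher. For the 31 named genes called as rising, 338 of 363 slopes under alternatives kept the call, 25 lost it and 0 turned direction. For the 7 named genes tested and not called whose slopes are given, 78 of 83 did the same, FST (-0.14 without 300 nM) and PDE4B (-0.13 without 0 nM) gained a falling call, and 3 slopes turned direction without a call, those of TMPRSS2 with the untreated library added (0.22), of FEZ1 without 0 nM (from -0.00068 to 0.0319 with a dose left out) and of PDE4B without 300 nM (from -0.13 to 0.0214). The cause was not tested. Only 0 h had 2 libraries, so later times and doses have no replicate error, and 13 genes were too low at 5 h to be tested. No paired analysis was possible because the groups compared share fewer than 2 replicate numbers.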
